A study of Sus scrofa with 9 samples.

Results

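The genes described here encode the nuclear subunits of oxidative phosphorylation, the respiratory chain and ATP synthase of the mitochondrion. They are 69 of the 27339 genes in a count table of pig myoblasts, chosen by symbol alone: NDUFA, NDUFB, NDUFC, NDUFS and NDUFV followed by a number, SDHA to SDHD, names starting with UQCR, COX subunits numbered 4 to 8, and names starting with ATP5. The rule itself uses no measured value, though the gene set was proposed with earlier results of these data known. Complex I holds 36 of them, complex II 4, complex III 2, complex IV 10 and complex V 17, with NDUFA4 and NDUFA4L2 placed in complex IV, where their proteins are now counted. ATP5S and ATP5SL carry the prefix but do not encode subunits of the synthase. The table keeps older symbols for complex V (ATP5A1 for the alpha and ATP5B for the beta subunit, ATP5G1 to ATP5G3 for the c ring). COX4I1, COX5A and UQCRC1, other subunit genes of complexes III and IV, were not analysed here.

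Oxidative phosphorylation passes electrons from NADH and succinate through complexes I and II to ubiquinone, then through complex III and cytochrome c to complex IV, where oxygen is reduced. Complexes I, III and IV pump protons out of the matrix, and complex V lets them return through its c ring while its F1 head makes ATP. Most subunits are encoded in the nucleus and imported, and their genes are largely expressed together under factors such as NRF1, GABPA, ESRRA and the PGC-1 coactivators. Proliferating myoblasts rely in part on glycolysis, and muscle raises its oxidative machinery as it differentiates.

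The cells were primary Göttingen minipig myoblasts at passages 7 to 9 that carried a doxycycline-inducible human DUX4 transgene, a pig DUXC transgene or GFP, the control, with 3 libraries in each group. All 9 libraries came from cells given 1 µg/mL doxycycline for 16 h, so the drug and the inducible vector system are common to the control. DUX4 is a double homeobox factor whose misexpression in muscle underlies facioscapulohumeral dystrophy, and DUXC is a related double homeobox gene of the pig. Expression in these cells was forced from a transgene and was read at that time alone. Whether a group's 3 libraries stem from separate cultures is not stated in the labels, so p-values reflect the spread of these libraries alone, possibly a technical one. Transgene levels were not analysed here, and group membership follows the labels.

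Total counts were 36580573 to 44420895 per library, and the 69 genes took 0.453% of the counts with DUXC, 0.513% with GFP and 0.546% with DUX4. Of the 69 genes 68 could be tested among 15956 genes in all, and 67 had a mean of at least 10 CPM (normalised read counts, scaled to TMM-adjusted library sizes). Positions are from RefSeq for Sscrofa11.1, where all 69 matched by symbol and 21 overlap the span of another gene. COX8H, a complex IV isoform gene, was not tested, with 2 counts over the DUX4 libraries and none elsewhere. Markers of the labelled cell type were unevenly expressed: in the GFP libraries 9 satellite cell and myoblast markers summed to 97.4 to 107 CPM, with MYOD1 at 1 count and MYOG at 6. Of the 9, 4 had a mean of at least 1 CPM and 0 were without counts. The sum of 8 fibroblast and matrix markers was 62456 to 66674 CPM. These lists hold different genes, so their sums do not measure shares of cells.

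With DUXC, almost the whole set was lower than in the control, by a modest amount. Of 68 tested members 62 fell and 4 rose against GFP (edgeR quasi-likelihood test, Benjamini-Hochberg adjusted p under 0.05), while 42.3% of all tested genes fell and 40.2% rose. Among tested genes of at least 10 CPM, the class that holds nearly all members, 53.8% fell and 35.0% rose. The median log2 fold change of the members was -0.31, a fall of 19.2%, against -0.03 over all tested genes and -0.16 over those of at least 10 CPM. A change of at least 2-fold, passed by 29.3% of all tested genes, was reached by NDUFA4L2 alone. In 61 members every DUXC library lay below every GFP library and in 4 above, as for 42.8% and 40.7% of all tested genes. The plot of all members by library shows this downward shift in each complex.

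**Figure D1:**
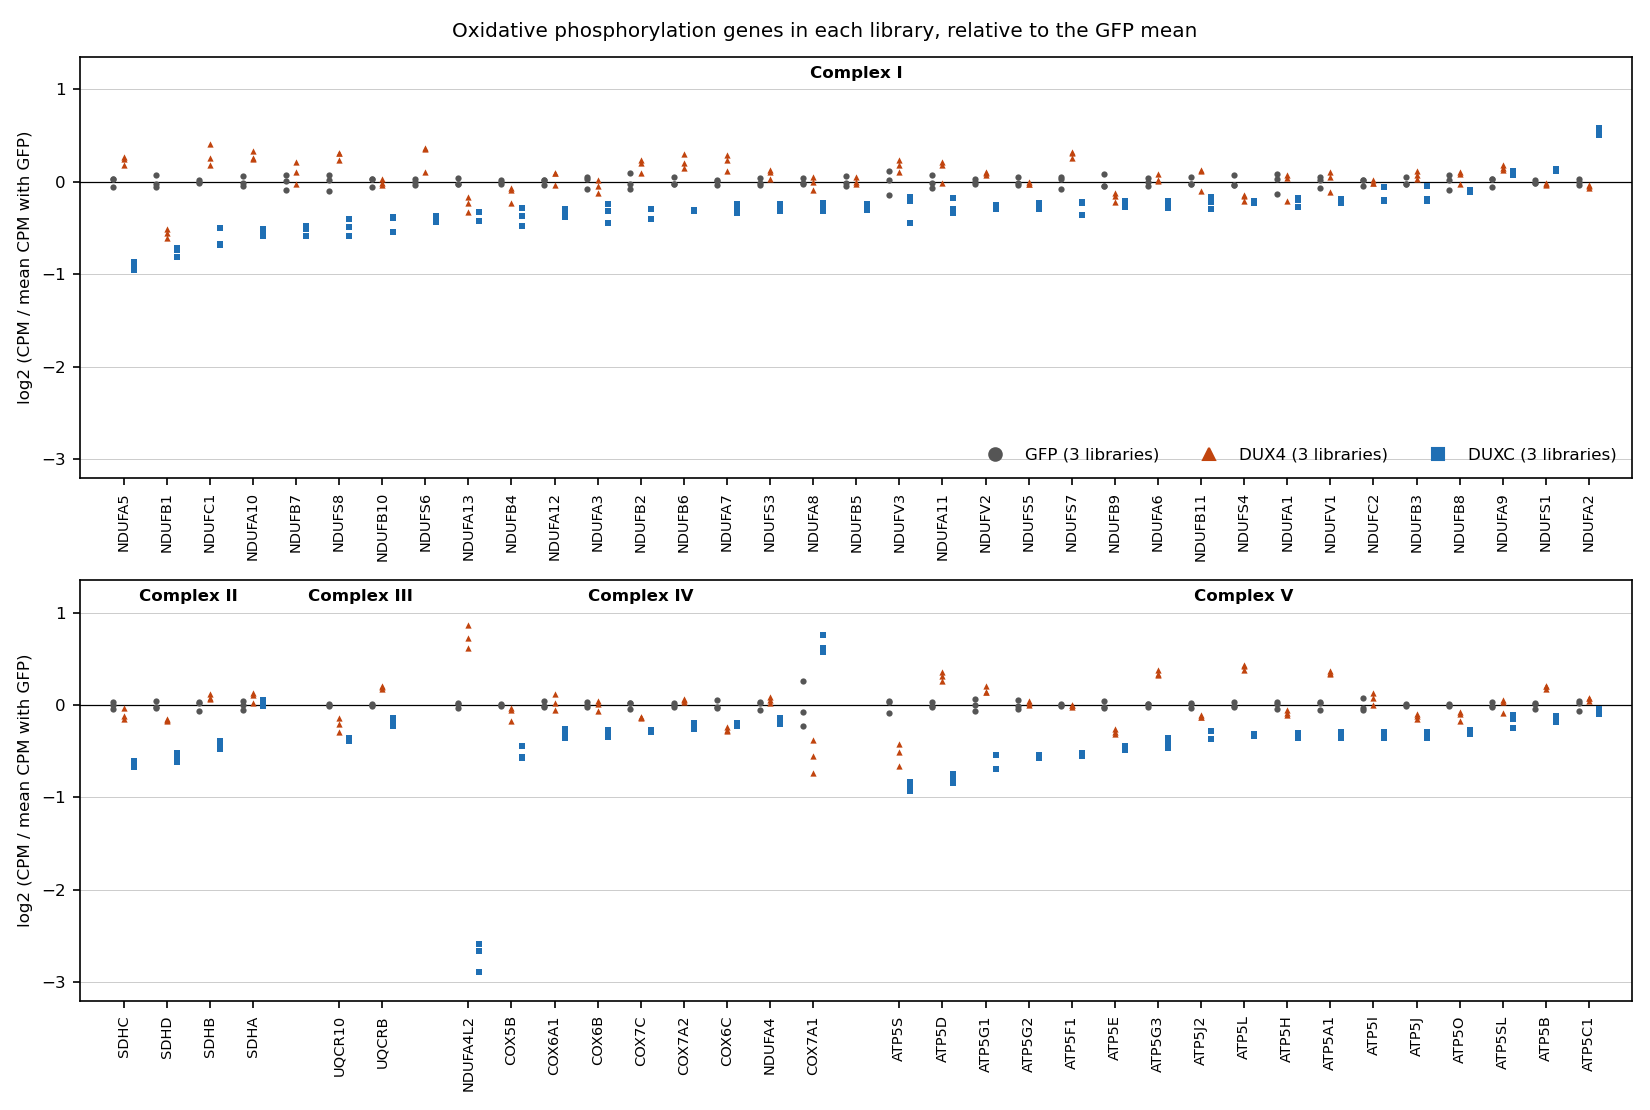
Log2 of CPM over the mean CPM of the GFP libraries (vertical axis) for 67 of the 68 tested members (horizontal axis), 3 libraries per group, ordered within each complex by the DUXC value. Most blue squares (DUXC) lie between 0 and -1, NDUFA4L2 (fitted log2 -2.71) lies far below, and COX7A1 (0.65) and NDUFA2 (0.55) lie above 0, while the orange triangles (DUX4) scatter to both sides of 0.

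With DUX4 the same genes moved in both directions and by less. Of 68 tested members 24 rose, 18 fell and 26 did not pass the edgeR test against GFP, where 32.9% of all tested genes rose and 31.9% fell, or 37.0% and 37.8% of those of at least 10 CPM. These shares (35.3% and 26.5%) lie near the background, and none of the members changed 2-fold, as 15.7% of all tested genes did. The median log2 fold change was 0.05 against 0.00 over all tested genes, with members from -0.56 (NDUFB1) to 0.74 (NDUFA4L2). DUX4 libraries lay wholly above GFP for 22 members and wholly below for 18, against 34.0% and 33.1% of all tested genes.

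The direct contrast of the transgenes tests whether the levels with DUX4 and DUXC differ. Against DUXC, 61 of 68 members were higher with DUX4 and 3 lower (edgeR, adjusted p under 0.05), where 40.8% of all tested genes were higher and 41.6% lower. Among tested genes of at least 10 CPM the shares were 52.1% and 36.8%. The median difference was 0.29 on the log2 scale, against -0.01 over all tested genes and 0.14 over those of at least 10 CPM. The 3 members lower with DUX4 were COX7A1, NDUFA2 and NDUFS1. A difference of at least 2-fold, found in 30.6% of all tested genes, was reached by NDUFA4L2, COX7A1, NDUFA5 and ATP5D. Libraries with DUX4 lay wholly above those with DUXC for 60 members and wholly below for 4, against 41.0% and 42.0% of all tested genes. The DUXC libraries lay below all 6 other libraries for 57 members, as they did for 32.2% of all tested genes and 43.9% of those of at least 10 CPM.

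**Figure D2:**
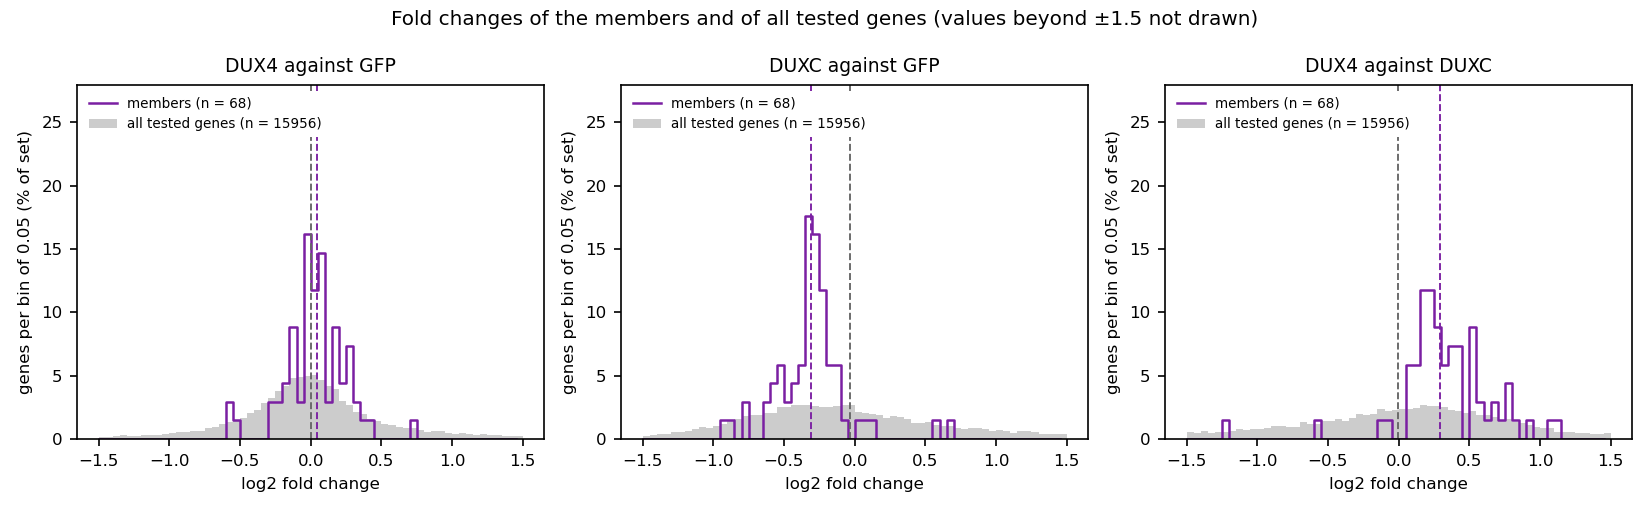
Share of genes per bin of log2 fold change (horizontal axis, bins of 0.05) for the 68 tested members (purple line) and all 15956 tested genes (grey), in 3 comparisons, with dashed lines at the medians. The members form a narrow peak near 0 for DUX4 against GFP (median 0.05), below 0 for DUXC against GFP (median -0.31) and above 0 for DUX4 against DUXC (median 0.29), inside a much wider spread of all genes.

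The size of the DUXC shift depended on how libraries were scaled, since the median of all tested genes moves with the scaling. Library size alone raised that median by 0.12 and a median ratio over genes of at least 10 CPM, a scaling added after seeing the data, raised it by 0.16. Under 5 scalings (TMM, DESeq2 size factors, upper-quartile factors and the pair just named) the member median with DUXC ran from -0.32 to -0.15 and the number of lowered members from 63 to 46, with 3 to 6 raised. The background moved as well: under the scaling that gave 46 lowered and 6 raised members, 34.2% of all tested genes fell and 47.2% rose, as did 43.8% and 43.7% of those of at least 10 CPM. The member median minus that of all tested genes was -0.28, and minus that of genes of at least 10 CPM -0.15, gaps that a change of scaling leaves as they are by construction. The 46 members lowered under every scaling were also lowered in all 20 settings tried.

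Summed over each complex under TMM scaling, the decrease with DUXC ran from 15.5% in complex I to 21.9% in complex II. As shares of all counts, without TMM, the falls were smaller in every complex. Complex I went from 0.161% with GFP to 0.148% with DUXC, and complex II from 0.0319% to 0.0272%. The summed level of complex I was 1663 ± 22.1 CPM under GFP, 1693 ± 28.1 with DUX4 and 1405 ± 15.2 with DUXC (mean ± SD, n = 3), a fall of 15.5% with DUXC. Complex II went from 331 ± 8.73 to 258 ± 3.69 CPM with DUXC and the 2 measured genes of complex III from 83.9 ± 0.213 to 70.4 ± 1.08. Complex IV went from 793 ± 1.94 to 626 ± 7.13 CPM and complex V from 2437 ± 43.3 to 1946 ± 29.1. The plot of these sums shows DUXC libraries below the other 6 in every complex. With DUX4 complex V stood at 2668 ± 30.0 CPM, 9.46% above GFP with no overlap between libraries, while the other sums differed from GFP by -1.71% to 3.44%. The libraries did not overlap in complex III either, at 85.8, 88.4 and 86.1 CPM with DUX4 against 84.1, 83.9 and 83.6 with GFP. ATP5A1 and ATP5B alone held 17.6% to 20.7% of the members' counts, and without them the sum over members with DUX4 was 1.25% above GFP, in place of 4.67%.

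**Figure D3:**
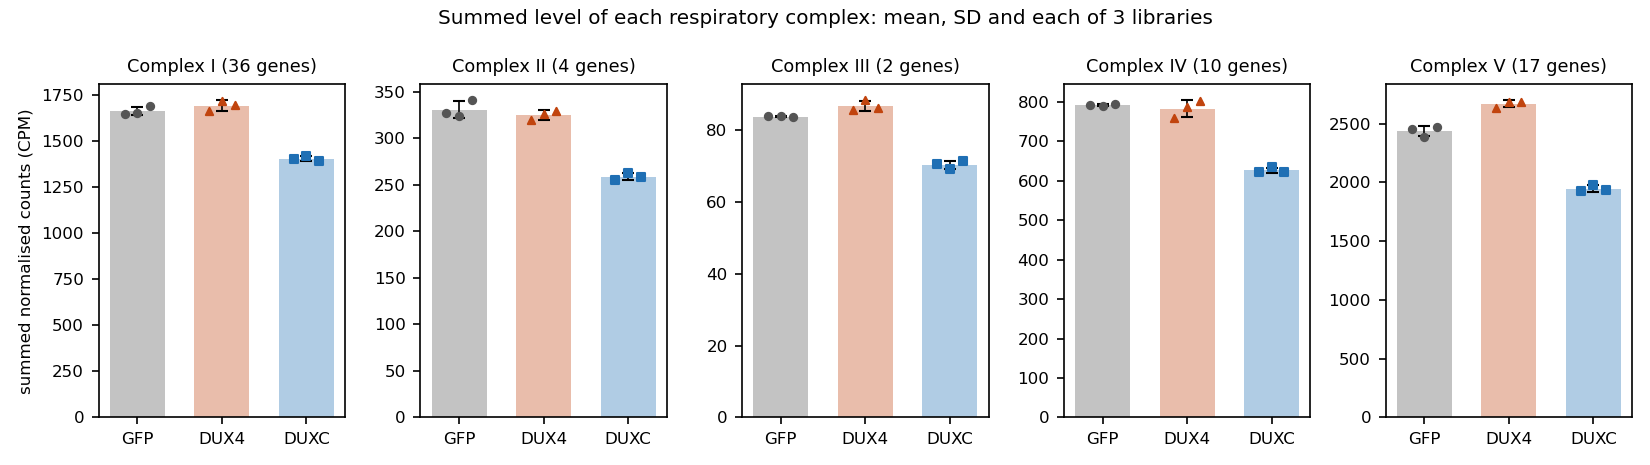
Summed CPM (vertical axis, from 0) of the members of each complex in the 3 groups; bars are means of 3 libraries, error bars SD, points libraries. DUXC is lowest in every panel (1405 CPM in complex I and 1946 in complex V), and DUX4 stands above GFP in complex V (2668 against 2437 CPM).

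Complex I, the NADH dehydrogenase, was represented by 7 core subunits, which carry the flavin and iron-sulfur centres, and 29 accessory subunits. With DUXC 6 core and 27 accessory genes fell and 1 and 2 rose. With DUX4 4 core genes rose and none fell, and 10 accessory genes rose and 5 fell. The shares over all tested genes were 42.3% lowered and 40.2% raised with DUXC, and 31.9% and 32.9% with DUX4. NDUFS7 and NDUFS8, iron-sulfur subunits on the path to the quinone site, had log2 fold changes of 0.30 and 0.29 with DUX4 (adjusted p = 4.72e-07 and 2.17e-06, edgeR) and -0.26 and -0.49 with DUXC (6.74e-06 and 1.36e-11). The call of NDUFV2 (log2 0.09 with DUX4) was lost with upper-quartile scaling and without DUX4 replicate 1 or GFP replicate 3, with adjusted p up to 0.0835.

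NDUFA5, an accessory subunit of the matrix arm (chromosome 18, 23881872 to 23896699, Sscrofa11.1), had the largest fall in complex I. It stood at 38.8, 39.0 and 36.7 CPM in the GFP libraries, 46.1, 43.2 and 45.1 with DUX4 and 20.3, 19.7 and 20.9 with DUXC. The groups did not overlap, with DUX4 highest and DUXC lowest. Its log2 fold change was -0.91 with DUXC (SE 0.048, adjusted p = 1.60e-22) and 0.23 with DUX4 (SE 0.044, adjusted p = 8.88e-06, edgeR). NDUFC1, a small membrane-arm subunit, followed the same order, at 21.1 ± 0.211 CPM under GFP, 25.8 ± 2.07 with DUX4 and 13.8 ± 0.983 with DUXC (SD, n = 3), log2 0.29 and -0.62, both past the threshold.

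NDUFB1, another membrane-arm subunit (chromosome 7, 113652772 to 113659937), was low with both transgenes. It had 66.3, 72.8 and 68.1 CPM under GFP, 46.9, 48.5 and 45.2 with DUX4 and 41.5, 42.1 and 39.4 with DUXC. Every transgene library lay below every GFP library, and its log2 fold changes were -0.56 with DUX4 (adjusted p = 6.09e-17) and -0.75 with DUXC (adjusted p = 6.73e-22, edgeR). NDUFA13, which is also known as the cell death regulator GRIM-19, fell by 0.24 and 0.39 on the log2 scale. The span of NDUFB1 overlaps that of CPSF2, and without the strand setting of the counting, reads of the pair cannot be told apart.

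NDUFA2, NDUFS1 and NDUFA9 were the complex I genes that rose with DUXC. NDUFA2, an accessory subunit with a thioredoxin-like fold (chromosome 2, 142359000 to 142361126), had 29.4, 30.2 and 30.9 CPM under GFP, 28.8, 29.3 and 29.4 with DUX4 and 44.8, 45.0 and 42.8 with DUXC. All DUXC libraries lay above the other 6, with a log2 fold change of 0.55 against GFP (SE 0.044, adjusted p = 6.88e-16, edgeR); with DUX4 the value was -0.05 (adjusted p = 0.367). The span of NDUFA2 overlaps that of TMCO6. NDUFS1, the largest core subunit, rose by 0.12 (adjusted p = 3.93e-04), from 115 ± 1.70 to 125 ± 1.16 CPM. NDUFA9 had 0.09 (adjusted p = 0.0274), a call that was lost with upper-quartile scaling, with no low-count filter and without DUXC replicate 3 or GFP replicate 1 (adjusted p up to 0.305), and 0.15 with DUX4 (adjusted p = 4.85e-04).

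Complex II, succinate dehydrogenase, joins the tricarboxylic acid cycle to the chain, and all of its 4 genes were measured. With DUXC the genes SDHB, SDHC and SDHD fell, while the flavoprotein gene SDHA did not pass the test. SDHA stood at 97.0, 101 and 104 CPM under GFP, 102, 110.3 and 108 with DUX4 and 99.7, 105 and 103 with DUXC, overlapping between all groups, with a log2 fold change of 0.02 with DUXC (SE 0.035, adjusted p = 0.515). In some alternatives it passed as raised with DUXC: DESeq2 size factors (log2 0.10, adjusted p = 0.00735) and library size alone (0.15, adjusted p = 1.49e-04, edgeR). It was also raised with DESeq2, with at least 1 CPM in 3 libraries and with the 2 compared groups alone. The scaling over genes of at least 10 CPM gave a rise of 0.18 (adjusted p = 6.89e-06, edgeR). The iron-sulfur subunit gene SDHB had 55.8 ± 1.97 CPM with GFP and 41.3 ± 1.28 with DUXC (log2 -0.44, adjusted p = 7.00e-14). The membrane anchor genes fell further.

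SDHC had 84.2, 81.5 and 86.1 CPM under GFP, 77.0, 75.3 and 82.0 with DUX4 and 55.0, 54.6 and 52.6 with DUXC, and SDHD had 89.1, 88.3 and 93.3, 81.2, 79.9 and 80.5 and 59.0, 60.3 and 62.8. In both genes the DUXC libraries were the lowest, with log2 fold changes of -0.63 and -0.57 (adjusted p = 1.18e-20 and 8.18e-20, edgeR). The ratio of SDHA counts to those of SDHC and SDHD, which needs no scaling between libraries, was 0.578 ± 0.0168 with GFP, 0.674 ± 0.0336 with DUX4 and 0.892 ± 0.0172 with DUXC (SD, n = 3), with no overlap between groups. With DUX4 SDHD fell by 0.16 (adjusted p = 5.35e-05). The small DUX4 values of SDHA (0.09), SDHB (0.09) and SDHC (-0.10) passed the test in the full data but not under every alternative. The adjusted p reached 0.177 for SDHA, lost with upper-quartile scaling and without DUX4 replicate 2 or 3 or GFP replicate 1. It reached 0.219 for SDHB, lost with upper-quartile scaling, with no low-count filter and without DUX4 replicate 2 or GFP replicate 2. It reached 0.0939 for SDHC, lost with DESeq2 size factors, with DESeq2, with library size alone and without DUX4 replicate 2 or GFP replicate 3. The span of SDHA overlaps that of CCDC127.

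In complex III, the cytochrome bc1 complex, UQCRB and UQCR10 were the genes measured. UQCRB, a ubiquinone-binding subunit, had 51.5, 51.9 and 51.3 CPM under GFP, 59.5, 59.1 and 58.1 with DUX4 and 45.4, 44.2 and 46.8 with DUXC. It rose with DUX4 (log2 0.19, adjusted p = 1.71e-05) and was lower with DUXC (log2 -0.18, adjusted p = 3.60e-05), a call lost with library size alone and with the scaling over genes of at least 10 CPM (adjusted p up to 0.553). UQCR10, a small subunit of the same complex, fell with both, by 0.21 with DUX4 and 0.37 with DUXC on the log2 scale.

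Complex IV, cytochrome c oxidase, held the widest range. Its 7 ubiquitous subunit genes all fell with DUXC, with log2 fold changes from -0.52 (COX5B, the zinc-binding subunit) to -0.18 (NDUFA4), and with DUX4 COX5B, COX6C and COX7C fell and none rose. Of all tested genes 42.3% fell with DUXC, and 31.9% fell and 32.9% rose with DUX4. The DUX4 call of COX5B (log2 -0.08) was lost in 10 alternatives (adjusted p up to 0.316), among them those without DUX4 replicate 1 or any 1 GFP library. The calls of NDUFA4 and of COX6C (log2 -0.21) with DUXC were lost under the scaling over genes of at least 10 CPM (adjusted p = 0.613 and 0.136), and that of NDUFA4 also with library size alone. COX6C was among those lower with DUX4, at 103 ± 3.62 CPM under GFP, 85.9 ± 1.08 with DUX4 and 89.0 ± 1.19 with DUXC. A pseudogene of the same symbol as NDUFA4 is listed on chromosome 13 in RefSeq, so the NDUFA4 row is uncertain.

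NDUFA4L2, the paralogue of NDUFA4 that is induced in hypoxia (chromosome 5, 22540482 to 22548418), differed most of all members. It had 30.5, 31.7 and 31.5 CPM in the GFP libraries, 47.7, 51.7 and 57.0 with DUX4 and 5.22, 4.21 and 4.95 with DUXC. DUX4 was highest, DUXC lowest, and no libraries of different groups overlapped. Its log2 fold change was -2.71 with DUXC (SE 0.074, adjusted p = 1.17e-29), 0.74 with DUX4 (SE 0.052, adjusted p = 1.39e-15) and 3.45 between the transgenes (SE 0.070, adjusted p = 4.11e-34, edgeR). As a ratio of counts to those of NDUFA4 in the same library it was 0.362 ± 0.0175 with GFP, 0.581 ± 0.0380 with DUX4 and 0.0628 ± 0.00826 with DUXC (SD, n = 3).

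COX7A1, the heart and skeletal muscle isoform of subunit VIIa (chromosome 6, 45519225 to 45520721), was scarce and moved the other way. It had 2.57, 2.31 and 3.23 CPM under GFP, 1.84, 1.63 and 2.08 with DUX4 and 4.13, 4.58 and 4.03 with DUXC, from 321, 227 and 505 counts per group. DUXC libraries were highest and DUX4 libraries lowest, without overlap, with log2 fold changes of 0.65 with DUXC (adjusted p = 9.24e-06) and -0.55 with DUX4 (adjusted p = 0.00101, edgeR). Its ubiquitous counterpart COX7A2 had 79.2 ± 1.31, 82.0 ± 0.903 and 67.3 ± 1.46 CPM under GFP, DUX4 and DUXC, so COX7A1 counts were 0.0342 ± 0.00648, 0.0226 ± 0.00281 and 0.0631 ± 0.00537 of those of COX7A2 (SD, n = 3). Beside this, 9 differentiated muscle markers in the table summed to 2.67 to 2.74 CPM under GFP, 2.08 to 2.46 with DUX4 and 5.84 to 6.91 with DUXC, and MYH1 was at 0 with GFP and MYH2 with DUX4; their part in the result was not tested.

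**Figure D4:**
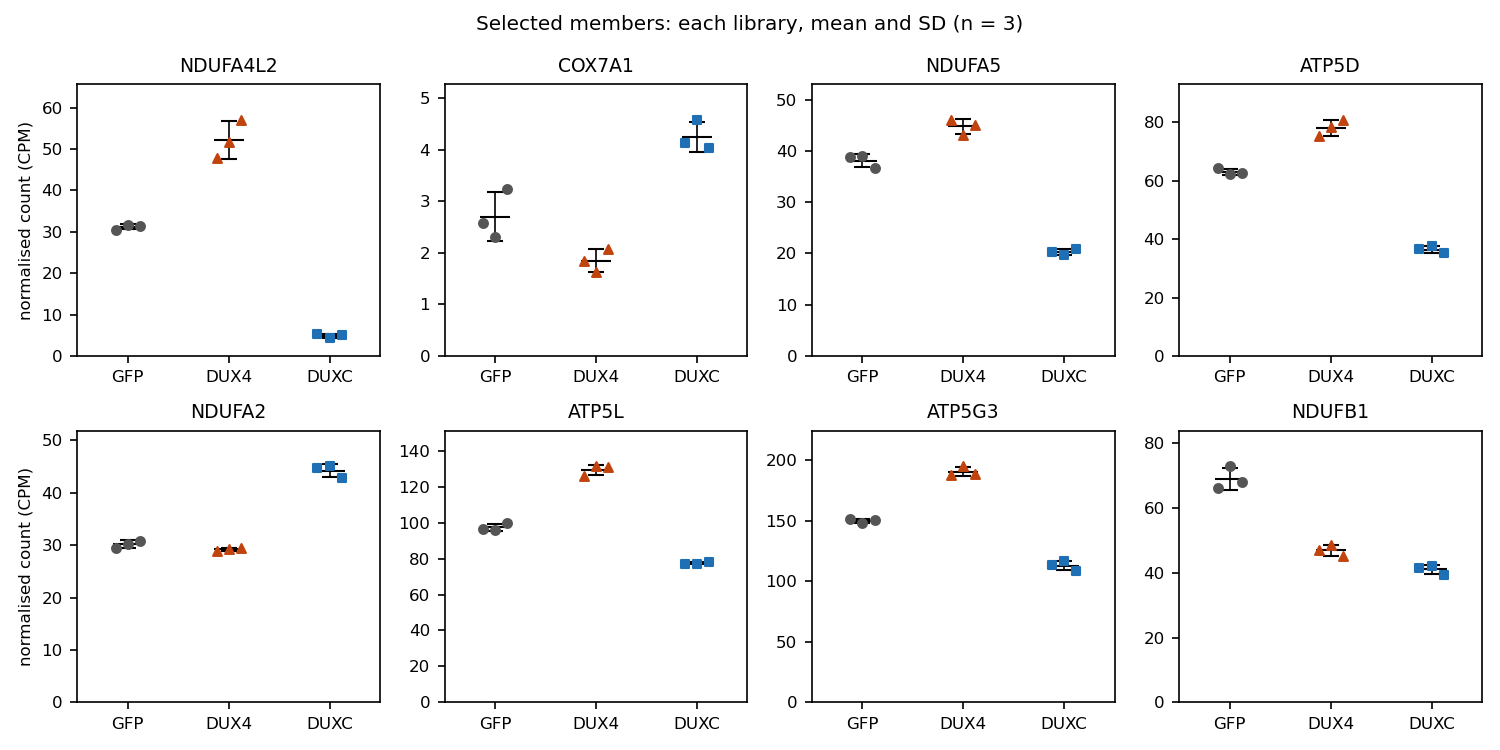
CPM (vertical axes, from 0) of 8 members in each of 3 libraries per group, with mean and SD. NDUFA4L2, NDUFA5, ATP5D, ATP5L and ATP5G3 were highest with DUX4 and lowest with DUXC, COX7A1 and NDUFA2 were highest with DUXC, and NDUFB1 was highest with GFP.

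Complex V, the ATP synthase, consists of the F1 head, a peripheral stalk, the c ring and small membrane subunits. With DUXC 16 of 17 members fell and none rose, where 42.3% of all tested genes fell and 40.2% rose. Among tested genes of at least 10 CPM 53.8% fell. The exception was ATP5C1, the gamma subunit gene, at log2 -0.07 (adjusted p = 0.0650, edgeR). Its call turned with the setting: it was lowered with upper-quartile scaling (log2 -0.08, adjusted p = 0.0288), with no low-count filter (log2 -0.11, adjusted p = 0.00286) and without DUX4 replicate 1, 2 or 3, DUXC replicate 3 or GFP replicate 2, and raised under the scaling over genes of at least 10 CPM (log2 0.09, adjusted p = 0.0155). With DUX4 6 rose and 6 fell (35.3% each), near the 32.9% and 31.9% of all tested genes. Of the 5 F1 genes 3 rose and 1 fell, of the 4 stalk genes none rose and 3 fell, and of the 3 c ring genes 2 rose and none fell. A difference between these parts was not tested. All 17 were higher with DUX4 than with DUXC (edgeR, adjusted p under 0.05), as were 40.8% of all tested genes and 52.1% of those of at least 10 CPM. The calls of ATP5C1, ATP5E, ATP5J, ATP5O and ATP5SL in that contrast were lost under the scaling over genes of at least 10 CPM.

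ATP5A1 and ATP5B, whose products form the catalytic head, were the most counted members. ATP5A1 (chromosome 1, 95738789 to 95750835) had 424, 398 and 418 CPM under GFP, 522, 535 and 524 with DUX4 and 323, 337 and 329 with DUXC, and ATP5B had 547, 524 and 544, 609, 623 and 623 and 474, 497 and 485. In both genes the groups did not overlap, and DUX4 was highest and DUXC lowest. Log2 fold changes were 0.35 and 0.20 with DUX4 (adjusted p = 1.52e-14 and 5.46e-08) and -0.33 and -0.15 with DUXC (adjusted p = 8.83e-14 and 9.22e-06, edgeR), the last of which was lost with library size alone and changed sign, to 0.01 (adjusted p = 0.830), with the scaling over genes of at least 10 CPM.

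ATP5D, the delta subunit of the central shaft (chromosome 2, 77216430 to 77219301), had 64.2, 62.3 and 62.6 CPM under GFP, 75.2, 78.3 and 80.9 with DUX4 and 36.5, 37.7 and 35.1 with DUXC. Its groups did not overlap, with log2 fold changes of 0.31 with DUX4 (adjusted p = 3.59e-10), -0.79 with DUXC (adjusted p = 1.91e-23) and 1.10 between the transgenes (SE 0.039, edgeR). Its counts were 0.639 ± 0.0176 of those of ATP5C1 with GFP, 0.756 ± 0.0193 with DUX4 and 0.387 ± 0.0191 with DUXC (SD, n = 3). ATP5E, the epsilon subunit of the same shaft, fell with both transgenes, by 0.29 with DUX4 and 0.47 with DUXC.

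The stalk holds the F1 head still while the ring turns, and 3 of its genes fell by small amounts with DUX4. ATP5J, ATP5O and ATP5H had log2 fold changes of -0.13, -0.12 and -0.09 with DUX4, and ATP5F1 had -0.01 (adjusted p = 0.832). The call of ATP5H was lost in 9 alternatives, 4 of which left out 1 library (adjusted p up to 0.195). Counts of the F1 genes over those of the stalk genes were 2.59 ± 0.0480 with GFP, 3.14 ± 0.0579 with DUX4 and 2.80 ± 0.0257 with DUXC (SD, n = 3), with no overlap between groups. This ratio mostly follows ATP5A1 and ATP5B, at means of 413 and 538 CPM under GFP. The other F1 genes ATP5C1, ATP5D and ATP5E had 98.8, 63.0 and 148 CPM. A shift of the F1 genes as a whole was not tested. With DUXC all 4 stalk genes fell, from -0.54 (ATP5F1) to -0.29 (ATP5O).

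The c ring protein is made from 3 genes that encode the same mature peptide. ATP5G3 (chromosome 15, 81091037 to 81094297) had 151, 148 and 151 CPM under GFP, 188, 195 and 189 with DUX4 and 113, 117 and 109 with DUXC, and its log2 fold changes were 0.35 and -0.41 (adjusted p = 1.68e-13 and 7.22e-16, edgeR). DUX4 libraries were highest and DUXC libraries lowest. ATP5G1 had 0.16 and -0.59, and ATP5G2 0.02 (adjusted p = 0.573) and -0.55. Of c ring counts, ATP5G3 held 40.3% ± 0.513 with GFP, 45.3% ± 0.356 with DUX4 and 42.9% ± 0.522 with DUXC, and ATP5G2 46.9% ± 0.758, 42.1% ± 0.0467 and 45.2% ± 1.02 (SD, n = 3).

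ATP5L, a small membrane subunit involved in dimers of the synthase (chromosome 9, 45706449 to 45716541), had the largest rise with DUX4 in complex V. It stood at 96.3, 95.8 and 99.8 CPM under GFP, 126, 131 and 131 with DUX4 and 77.1, 76.9 and 78.1 with DUXC, without overlap, and its log2 fold change was 0.41 with DUX4 (SE 0.033, adjusted p = 1.56e-15) and -0.33 with DUXC (adjusted p = 1.93e-12, edgeR). Its span overlaps that of LOC102167309. ATP5S, which is not a subunit, had the most negative values in this group of symbols, -0.53 with DUX4 and -0.87 with DUXC, and without ATP5S and ATP5SL the counts were 24 raised and 17 lowered with DUX4 and 4 and 60 with DUXC.

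The related lists place these values among other mitochondrial genes. Their counts are read against all tested genes, of which 32.9% rose and 31.9% fell with DUX4 (median log2 0.00) and 40.2% rose and 42.3% fell with DUXC (median -0.03). Of 6 measured electron carriers and carrier-linked genes, 3 rose and 3 fell with DUX4 (median 0.05), and 1 rose and 5 fell with DUXC (16.7% and 83.3%, median -0.38). CYCS, cytochrome c, had 119 ± 2.14 CPM under GFP, 138 ± 4.65 with DUX4 and 92.0 ± 2.30 with DUXC (log2 0.22 and -0.37), and NDUFAB1, the acyl carrier protein that is also a part of complex I, had 0.38 and -0.39. ETFDH, which feeds electrons from fatty acid oxidation to ubiquinone, rose with both, by 0.67 with DUX4 and 0.65 with DUXC, while ETFA and ETFB, which pass it those electrons, had -0.14 and -0.12 with DUX4 and -0.34 and -0.54 with DUXC. The DUX4 call of ETFB was lost in 7 alternatives (adjusted p up to 0.234), among them those without DUX4 replicate 1, GFP replicate 2 or GFP replicate 3. COQ9, needed to make ubiquinone, fell by 0.32 with DUX4 and 0.61 with DUXC.

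Among 19 tested regulators of mitochondrial genes with more than 3 counts in each group, 11 rose and 2 fell with DUX4 (median log2 0.27). With DUXC 9 rose and 7 fell (median 0.12), near the 40.2% raised and 42.3% lowered of all tested genes. With DUX4 the shares of all tested genes were 32.9% and 31.9%. PPARGC1A and ESRRB, an oestrogen-related receptor gene, were left out of the regulator counts after their values were seen. The reason was that they passed the low-count filter only through the DUXC libraries. ESRRB had no counts with GFP or DUX4 and 265 with DUXC, which is 1.99, 2.38 and 2.32 CPM. NRF1, a factor for many respiratory chain genes, had 15.6, 14.5 and 15.1 CPM under GFP, 24.9, 23.1 and 24.0 with DUX4 and 53.9, 56.9 and 58.5 with DUXC, a log2 fold change of 1.91 with DUXC (SE 0.050, adjusted p = 5.42e-35) and 0.67 with DUX4 (adjusted p = 2.03e-15, edgeR). TFAM, which packages and transcribes mitochondrial DNA, had 24.7, 24.1 and 24.6 CPM under GFP, 31.5, 29.8 and 27.0 with DUX4 and 68.6, 72.1 and 70.6 with DUXC, log2 1.53 and 0.27. In both genes the DUXC libraries were highest and the GFP libraries lowest, without overlap. POLG2, the accessory subunit of the mitochondrial DNA polymerase, rose by 1.80 with DUXC.

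Other regulators went the other way with DUXC. The nuclear receptor gene ESRRA fell by 0.62 (adjusted p = 2.13e-15, edgeR) and had 0.00 with DUX4, and the coactivator gene PPARGC1B had -0.90 with DUXC and 0.45 with DUX4. GABPA had 0.24 with DUX4 and 0.19 with DUXC, both past the threshold, and its span overlaps that of the member ATP5J. PPARGC1A, the best known coactivator of mitochondrial biogenesis, was close to absent: 2 counts with GFP, 5 with DUX4 and 103 with DUXC. It passed the low-count filter only through the DUXC libraries, so its counts are given without a ratio. The count of regulators lowered with DUX4 was 1 without DUX4 replicate 2.

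**Figure D5:**
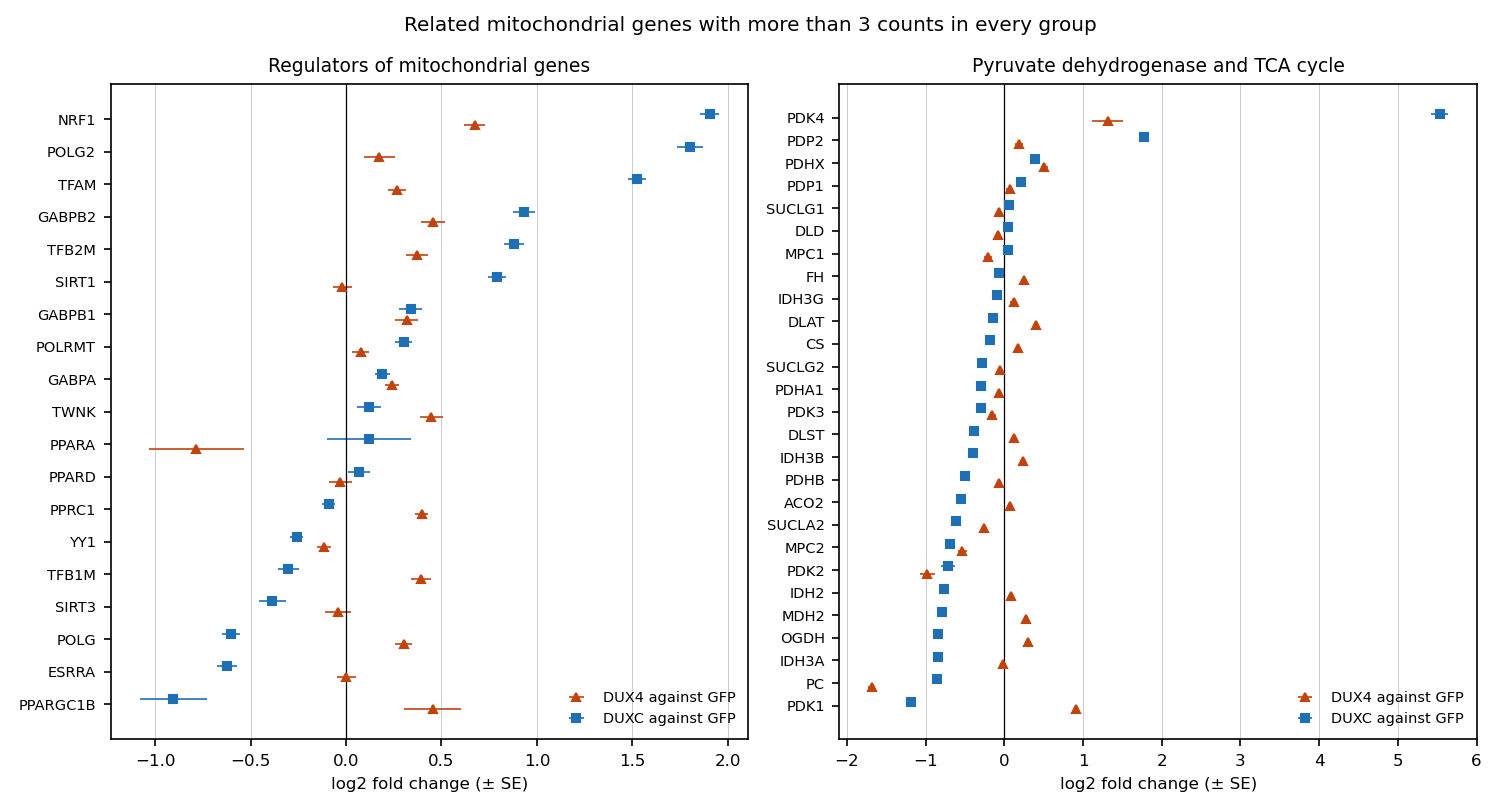
Log2 fold change against GFP (horizontal axes, ± SE) with DUX4 (orange) and DUXC (blue) for tested regulators and for pyruvate dehydrogenase and tricarboxylic acid cycle genes with more than 3 counts in every group, ordered by the DUXC value. NRF1 (1.91), POLG2 (1.80) and TFAM (1.53) are highest with DUXC on the left, and PDK4 (5.53) on the right, while most cycle genes lie below 0 with DUXC.

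The enzymes that supply the chain fell in part with DUXC. Of 27 tricarboxylic acid cycle and pyruvate dehydrogenase genes, 4 rose and 19 fell with DUXC (14.8% and 70.4%, median log2 -0.30), with up to 8 raised under other scalings, and 12 rose and 7 fell with DUX4 (44.4% and 25.9%, median 0.07), with 11 lowered under upper-quartile scaling. PDK4, a kinase that shuts off pyruvate dehydrogenase, had 0.759, 0.693 and 0.590 CPM under GFP, 2.14, 1.26 and 1.72 with DUX4 and 32.9, 31.2 and 30.9 with DUXC (log2 1.31 and 5.53), and PDP2, the phosphatase that reverses it, rose by 1.77 with DUXC and 0.19 with DUX4. PDK1, the kinase induced in hypoxia, had 101, 102 and 97.3 CPM under GFP, 197, 188 and 182 with DUX4 and 45.1, 41.6 and 45.1 with DUXC (log2 0.92 and -1.19). For PDK4, PDP2 and PDK1 no libraries of different groups overlapped. Pyruvate carboxylase, PC, fell by 1.68 with DUX4 and 0.86 with DUXC.

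Of 14 genes by which hypoxia acts on mitochondria, which include NDUFA4L2 and PDK1, 9 rose and 3 fell with DUX4 (64.3% and 21.4%, median log2 0.37), and 2 rose and 11 fell with DUXC (14.3% and 78.6%, median -0.37). LDHA, lactate dehydrogenase, had 1929 ± 33.0 CPM under GFP, 3664 ± 8.83 with DUX4 and 744 ± 10.3 with DUXC, and BNIP3, a receptor for mitochondrial removal, had 1.63 and -0.89 on the log2 scale. Of 26 tested import genes 18 rose and none fell with DUX4 (69.2% rose, median 0.21), and 2 rose and 18 fell with DUXC (7.69% and 69.2%, median -0.33), with up to 5 raised under other scalings. TOMM40, the import pore, had 0.56 and -0.66, and TOMM70, an import receptor, had 0.29 and 1.48. Of 31 tested assembly factors 11 rose and 4 fell with DUX4 (35.5% and 12.9%, median 0.03), and 6 rose and 13 fell with DUXC (19.4% and 41.9%, median -0.08). The shares raised with DUX4 and lowered with DUXC lie near those of all tested genes, and with DUXC 11 to 14 were raised under library size alone and under the scaling over genes of at least 10 CPM. SDHAF3, which helps to mature SDHB, rose by 2.02 with DUXC and 0.44 with DUX4, and ATPAF1, a chaperone of the F1 beta subunit, fell by 0.82 and 0.21.

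Among 7 tested genes of the adenine nucleotide and phosphate carriers and of other routes into the ubiquinone pool, 1 rose and 5 fell with DUX4 (median log2 -0.30), and none rose and 5 fell with DUXC (median -0.65), or 1 rose with DUXC under library size alone. SLC25A4, the muscle and heart adenine nucleotide translocator, fell by 0.96 with DUX4 and 0.74 with DUXC, and SQOR, which passes electrons from sulfide to ubiquinone, fell by 0.33 and 1.07. Other groups of genes moved beside the members: of 20 cell cycle genes 20 rose with DUX4, and 17 rose and 2 fell with DUXC. For these and the 7 genes above, the shares of all tested genes were 32.9% raised and 31.9% lowered with DUX4. With DUXC they were 40.2% and 42.3%. In bulk libraries fewer cells of a type and less RNA per cell cannot be told apart. Summed levels of 8 smooth muscle and pericyte markers were 2842 to 3047 CPM under GFP, 1169 to 1274 with DUX4 and 681 to 708 with DUXC. Those of fibroblast and matrix markers were 38495 to 43171 with DUX4 and 37333 to 38193 with DUXC. Satellite cell and myoblast markers summed to 123 to 128 with DUX4 and 65.9 to 68.8 with DUXC. Among the 6 of them tested, 3 rose and 1 fell with DUX4, and 3 rose and 3 fell with DUXC. The median log2 fold change of those 6 was 0.39 with DUX4 and 0.40 with DUXC, so the sum did not follow each marker. Endothelial markers summed to 58.0 to 62.0 CPM under GFP, 84.2 to 88.8 with DUX4 and 74.7 to 78.8 with DUXC, mostly from ERG (53.3 ± 1.54 CPM under GFP). Immune markers summed to 9.94 to 11.8, 9.64 to 11.4 and 17.6 to 19.6 CPM. CD14 was at 6.48 ± 0.567 CPM under GFP and 15.0 ± 0.858 with DUXC (SD, n = 3). Among 4 tested immune markers, 2 rose and 1 fell with each transgene. The lowered marker had a log2 fold change of -2.05 with DUX4 and -2.74 with DUXC. Adipocyte markers summed to 0.436 to 0.612, 1.82 to 1.94 and 10.7 to 11.5 CPM, with FABP4 at 0 counts under GFP, 192 with DUX4 and 1050 with DUXC, and epithelial markers to at most 1.74 CPM. Of the 6 endothelial, 6 immune, 6 adipocyte and 4 epithelial markers in the table, 1 (CDH5), 2 (PTPRC and CD3E), 5 (ADIPOQ, PLIN1, FABP4, LEP and UCP1) and 2 (EPCAM and KRT8) were at 0 with GFP. With DUX4 those at 0 were PTPRC, ADIPOQ, PLIN1 and EPCAM, and with DUXC none was at 0. The part of these cell types and of cell division in the values of the members was not tested.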

How the data were processed

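The authors deposited raw read counts for each gene in 9 libraries, which the labels' protocols describe as TruSeq stranded mRNA preparations. Per the submitters' processing notes, reads were called with CASAVA 1.9, trimmed with Trim Galore and counted with featureCounts on Sscrofa11.1. The file headers name Subread. For the annotation release, other versions and the strand setting, the value is not given in the sources used here.

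Counts were used as deposited. Low-count genes were removed with filterByExpr (15956 remained), and counts were scaled by TMM (factors 0.960 to 1.06) and fitted in 1 model of 3 groups with the quasi-likelihood F test of edgeR 4.0.16 (R 4.3.3, robust), two-sided, with p-values adjusted by Benjamini-Hochberg over all tested genes and a threshold of 0.05. CPM use the TMM-adjusted library size. Tested members other than COX7A1 had 568 to 76193 counts per group. The common dispersion of edgeR, pooled over genes and groups, corresponds to a coefficient of variation of 3.38% beyond counting noise. Libraries of a group differed beyond sampling noise, most of all with DUX4. Chi-square per degree of freedom was 7.06 to 18.6 with DUX4, 2.66 to 3.75 with GFP and 3.35 to 4.65 with DUXC. The fit used 1 spread per gene for all 3 groups, so p-values for DUX4 rest in part on the quieter groups. An exact permutation test of 3 against 3 libraries cannot go below 0.1, so none is given for ratios and sums. The fit was tested on simulated data.

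The members and lists were chosen with earlier results of these data known. Named are the 2 highest and 2 lowest members that passed per complex and contrast, those changed 2-fold, isoform families and complex II. The electron carriers and 6 set regulators are named as well. The genes of smallest p in each related list are named only in part, so they are a selection. No gene of the cell cycle list is named. Other members are named for their role and were chosen after their values were seen. Alternatives were other scalings, filters and tests (DESeq2 1.42.0, limma-voom 3.58.1), the 2 compared groups alone, a replicate block and leaving out each library. Gene sequences were not used here. The single values of 1 member are not reported here, though it counts in the totals.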

Additional observations from a re-analysis of the deposited data

How the results depend on the processing

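The direction of the member median and the counts of raised and lowered members kept their side in every alternative, with 1 count past 1.5 times the value of the report: 5 members were lower with DUX4 than with DUXC, in place of 3, under the median ratio over genes of at least 10 CPM, a scaling chosen after seeing the data. The member median for DUXC against GFP (-0.31) was -0.23 with DESeq2 size factors and with DESeq2, -0.18 with library size alone, -0.35 with no low-count filter, -0.25 with at least 1 CPM in 3 libraries and with the 2 compared groups alone, and -0.15 with the scaling over genes of at least 10 CPM. For DUX4 against DUXC (0.29) it was 0.24, 0.24, 0.19, 0.35, 0.24 and 0.16 with DESeq2 size factors, DESeq2, library size alone, no filter, the 1 CPM filter and the scaling over genes of at least 10 CPM. Leaving out single libraries gave 20 to 26 raised and 15 to 18 lowered members for DUX4 against GFP (median 0.03 to 0.06), 3 to 4 and 61 to 63 for DUXC against GFP (-0.33 to -0.29) and 60 to 62 and 3 for DUX4 against DUXC (0.30 to 0.34, the highest without DUX4 replicate 1).

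Some genes that passed in the main fit or in the alternative changed sign, and 5 of them passed the threshold with the new sign: ATP5C1 and COX17 as raised with DUXC (adjusted p = 0.0155 and 0.0422), and ETFDH (0.0243 with library size alone and 0.00174 over genes of at least 10 CPM), GABPA (0.0413) and NDUFS4 (0.0440) as lower with DUX4 than with DUXC. With library size alone, DUXC against GFP gave 0.0229 for NDUFB8 and 0.0332 for PPRC1, and DUX4 against DUXC gave -0.0813 for ETFDH and -0.0199 for NDUFB9. With the scaling over genes of at least 10 CPM, DUXC against GFP gave 0.00701 for ATP5B, 0.0895 for ATP5C1, 0.104 for COX17, 0.0133 for DLAT, 0.0120 for NDUFB3, 0.0544 for NDUFB8, 0.00583 for NDUFC2 and 0.0651 for PPRC1, and DUX4 against DUXC gave -0.00119 for ATP5C1, -0.114 for ETFDH, -0.0823 for GABPA, -0.0529 for NDUFB9 and -0.0817 for NDUFS4. These are shifts of the scaling itself, since it moves all genes of a contrast alike. Over the other values of named genes, 6047 kept their call or passed in neither fit, 143 lost a call and 59 gained one. A change of sign between fits that both failed the threshold is counted among the 6047. For DUX4 against GFP, 35 of 68 members were positive and 20 negative in all 20 settings. Summed levels moved beyond the spread of libraries in 43 cases and not in 191, and list counts changed past 1.5 times in 57 cases and not in 1425.

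Libraries with the same number did not deviate together (correlations -0.0567 to 0.0749, and 4 of 9 libraries correlated best with their own number), so the libraries share only a number. With the replicate block the counts were 24 and 18, 4 and 62, and 61 and 3, with medians of 0.04, -0.31 and 0.29, and the block changed none of these counts. Depth limits COX7A1 (227 to 505 counts per group), COX8H and PPARGC1A.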
